A study of Mus musculus with 32 samples.

Results

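Gene expression was compared in the hearts of sighted C3H mice and of C3H mice that carry the retinal degeneration mutation of Pde6b, using the 8 heart arrays among the 32 arrays of a study of eye, brain and heart. The heart arrays were taken by their title, which names the sighted C3H heart and the array numbers 1 to 8. Each array was a cDNA array with 20794 probes hybridised with 2 RNA samples, 1 labelled with Cy5 and 1 with Cy3. One channel held heart RNA of sighted C3H animals. The other held a single pool of heart RNA from 6 control males labelled C3H.pde6b-, so the controls are the blind mice and the sighted animals are the ones compared with them. The study's design text describes 6 male animals of the line named C3H seh. All groups share the C3H background, and no allele beyond "sighted" is given for the line or age for either group in the sources used here. Arrays 1 and 2, 3 and 4, 5 and 6, and 7 and 8 carried the dyes the opposite way round, with sighted RNA in Cy5 on the odd arrays. Each such pair was averaged into 1 replicate, which gave 4 replicates. The array numbers are the basis for the pairs. No label ties an array to an animal, and p-values then measure only the spread between these replicates, which may be technical. A control pool has no spread of its own, so each test asked whether the mean log2 ratio of sighted over control differed from 0, and leaves out how much control animals vary.

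Pde6b encodes the beta subunit of the rod phosphodiesterase, the enzyme that lowers cyclic GMP when light strikes a rod photoreceptor. Its loss in C3H mice kills the rods early in life, and the retina is its best-known site of action. The heart is a useful organ for such a comparison because it lies outside the visual system yet runs on a daily rhythm that light sets through the eye. Its muscle cells take most of their ATP from mitochondria: fatty acids and glucose are broken down to feed the citrate cycle, the respiratory complexes pass electrons to oxygen, and ATP synthase uses the resulting proton gradient. The remaining heart cells are mainly fibroblasts, which make collagen, together with endothelial cells, smooth muscle, pericytes and leukocytes. In whole heart RNA, fewer cells of a type and less RNA per cell cannot be told apart.

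The direction of the ratios is likely rather than stated. It was inferred from the eye arrays, where rods are present only in sighted animals: the median log2 ratio of 11 rod genes was 4.71 to 5.42 on the 6 eye arrays that carried sighted RNA in Cy5, but -4.37 to -3.78 on the 6 with the dyes reversed. Pde6b itself had no named probe, so the targeted gene could not be read in the heart. The labelled tissue was checked with cardiac genes. Probes for Myl2, Myl4, Tnnt2, Tnni3, Actc1, Pln and Mb gave a value in 4 of 4 replicates, and 88.0% of the sarcomere genes and 92.5% of the oxidative phosphorylation genes tested did so, against 55.7% of all genes tested and 12.5% of the rod genes. The share was also 89.1% for ribosomal protein genes, 91.3% for proteasome subunits and 84.6% for skeletal muscle genes. It thus shows that such probes gave values, and cannot by itself mark the tissue as heart. A ratio gives no absolute level, so levels of different genes were not compared.

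Array 7 lacked a value for 61.6% of its probes, while the other 7 heart arrays lacked 5.96% to 12.0%. Replicate 4 therefore held 7211 genes, and the other replicates 12697 to 12738. The median absolute deviation of the deposited log2 ratios was 0.445 on array 1, 0.411 on array 2 and 0.661 to 0.839 on the rest. Turned to sighted over control, heart arrays with the same dye orientation had a median Spearman correlation across probes of 0.162, and the 4 pairs of opposite orientation that form a replicate had one of -0.104. Across the genes measured in all 3 organs, the median SD between replicates was 0.290 in heart, 0.157 in brain and 0.168 in eye.

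**Figure D1:**
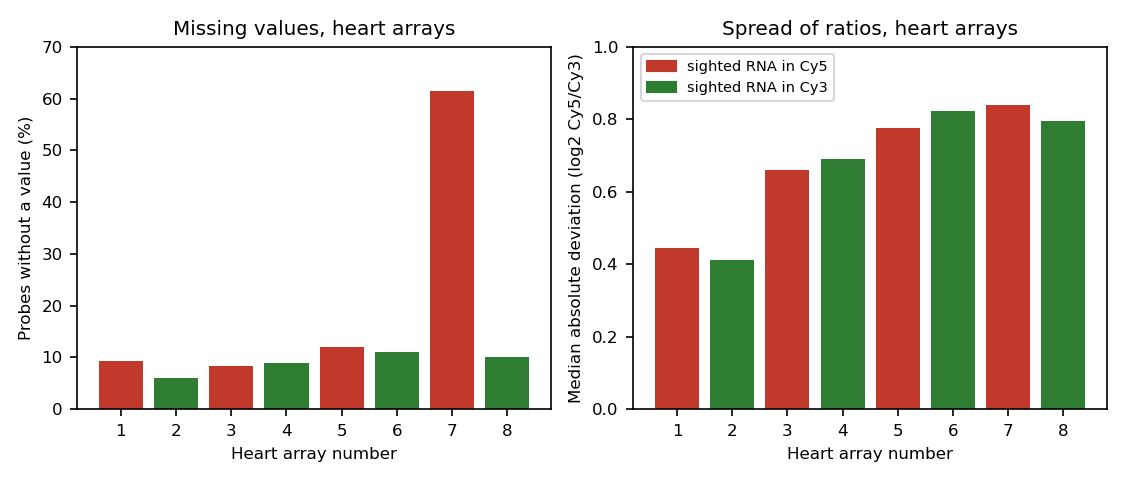
Quality of the 8 heart arrays. The left bars give the percentage of probes without a deposited value and the right bars the median absolute deviation of log2 Cy5/Cy3, by array number, in red where sighted RNA carried Cy5 and in green where it carried Cy3. Array 7 stands apart at 61.6% missing, and arrays 1 and 2 have the narrowest ratios.

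No gene separated sighted from control heart after adjustment. Of 12755 genes tested with limma, 7066 with a symbol and 5689 unnamed, 0 had a Benjamini-Hochberg adjusted p under 0.05 (0%), and the smallest adjusted p was 0.568. At an unadjusted p under 0.05 there were 1042 genes, 463 with sighted heart higher (3.63%) and 579 with it lower (4.54%). Most differences were small: the middle 50% of genes lay between -0.21 and 0.19 on the log2 scale around a median of -0.01, and 131 genes exceeded 1 in size. The values below are therefore descriptions of genes that did not pass the test, each with its replicate values. The adjusted p from limma was 0.568 or above for every gene named.

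The 10 named genes with the smallest unadjusted p and all 4 replicates above 0 averaged 0.55 to 0.71. Gfm1, the mitochondrial elongation factor G, gave log2 ratios of 0.44, 0.80, 0.60 and 0.85 in the 4 replicates, a mean of 0.67 ± 0.19 (SD, n = 4) or 1.59-fold. Its unadjusted limma p was 0.00312. Rab2a, a small GTPase of traffic between endoplasmic reticulum and Golgi, gave 0.87, 0.94, 0.39 and 0.66, a mean of 0.71 ± 0.25. Both genes were higher on 8 of 8 arrays, that is with either dye. This held for 1.59% of the 7104 genes with a value on every array. Gfm1 and Rab2a were picked for 4 replicates above 0, so their count of arrays is partly built in. Cs, citrate synthase, gave 0.60, 0.59, 0.49 and 1.18, with a mean of 0.71 ± 0.31 and 8 of 8 arrays above 0, but replicate 4 stood apart from the other three. Nos2, the inducible nitric oxide synthase, had the tightest values at 0.47, 0.55, 0.56 and 0.60 (mean 0.55 ± 0.06), again on 8 of 8 arrays. Dnaja3, a mitochondrial co-chaperone, had a mean of 0.62 ± 0.22 and Cmpk1, a pyrimidine nucleoside monophosphate kinase, one of 0.58 ± 0.10. Both were above 0 on every array, but Cmpk1 averaged 0.97 where sighted RNA carried Cy3 and 0.20 where it carried Cy5. Vps25, a subunit of the ESCRT-II endosomal sorting complex, averaged 0.63 ± 0.15 and Rnf103, an endoplasmic reticulum ubiquitin ligase, 0.62 ± 0.18, each above 0 on 7 of 8 arrays. Nr1d2, which encodes the clock repressor REV-ERB beta, gave 0.52, 0.67, 0.68 and 0.45 (mean 0.58 ± 0.11), with a mean of 1.11 where sighted RNA carried Cy5 and 0.05 where it carried Cy3. Such single-dye means use every array and probe with a value, so they need not average to the mean of the replicates. Marchf6, a ubiquitin ligase of the endoplasmic reticulum, averaged 0.62 ± 0.19, but its 2 probes disagreed, 1 with a mean of -0.0004 and the other of 1.24.

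The 10 genes lower in sighted heart in 4 of 4 replicates with the smallest p averaged -1.11 to -0.48. Inava, an adaptor of innate immune signalling and cell junctions, had the largest mean at -1.11 ± 0.74, with replicates of -0.43, -0.74, -2.13 and -1.13 and 8 of 8 arrays below 0. Its replicate 3 combined array 5 at -4.09 with array 6 at -0.17. The mean of Inava was -1.77 with sighted RNA in Cy5 and -0.44 in Cy3. Mycbp2, a very large ubiquitin ligase best known in neurons, gave -0.41, -0.71, -1.22 and -0.94 (mean -0.82 ± 0.34, unadjusted limma p = 0.00323). Its probes averaged -1.21, -0.40 and, in a single replicate, -0.52, and its mean was 0.06 when values above 15, treated here as missing, were kept. Catsper1, a sperm calcium channel subunit, gave -0.65, -0.47, -0.42 and -0.54, and Sun5, a sperm head-to-tail linker protein, gave -0.48, -0.41, -0.71 and -0.59. Both were below 0 on 8 of 8 arrays although their known site of expression is the testis. Of the 7104 genes with a value on every array, 1.45% were below 0 on each. Catsper1 and Sun5 were picked for 4 replicates below 0, so their count is partly built in. Crybb3, a lens crystallin, averaged -0.60 ± 0.29, and Cfc1, a co-receptor of Nodal in left-right patterning, -0.56 ± 0.24. Snupn, the import adaptor of spliceosomal snRNPs, averaged -0.48 ± 0.11, and the zinc finger gene Zfp771 -0.53 ± 0.18. Aar2, a splicing factor of the U5 particle, averaged -0.52 ± 0.10, with -0.94 where sighted RNA carried Cy3 and -0.11 where it carried Cy5. The kinase gene Vrk1 averaged -0.50 ± 0.17 over the replicates, but its mean was -0.99 with sighted RNA in Cy5 and 0.12 with it in Cy3.

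Genes of oxidative phosphorylation lay together on the sighted side of 0, by a small amount. Of 67 tested, 65 had a mean above 0, against 48.3% of all genes, 52.3% of genes with a symbol and 52.1% of genes with 4 replicates, and the median log2 ratio was 0.23 against -0.01 for all genes. None passed the adjusted test, and 9 had an unadjusted p under 0.05 with sighted heart higher (3.63% of all genes) and 0 with it lower. Among the 62 with 4 replicates, 40 were above 0 in each (12.9% of all such genes) and 0 were below 0 in each (12.4%). The list medians in the replicates were 0.16, 0.32, 0.27 and 0.13 where the medians of all genes were -0.06, -0.06, -0.01 and 0.11. In replicate 4 the list thus lay close to all other genes, and on array 7 its median of -0.13 lay below that of all genes, 0.23. On the other 7 arrays the list median, 0.07 to 0.38, lay above that of all genes, and 50 of the 67 genes were above 0 with both dye orientations (21.5% of all genes) and 0 below 0 with both (23.3%). These genes also had a value in 4 replicates more often than other genes, as given above. The part of that in the list's position was not tested.

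Within the chain, complex I, which takes electrons from NADH, had 25 of 26 genes above 0 and a median of 0.19. Ndufc1, an accessory subunit, gave 0.21, 0.15, 0.61 and 0.54 (mean 0.38 ± 0.23), and Ndufv1, the subunit that binds NADH, gave 0.27, 0.42, 0.17 and 0.40. All replicates of both were above 0, yet the mean of Ndufv1 was 0.83 with sighted RNA in Cy3 and -0.20 in Cy5. Ndufb4 had a mean of 0.78 that came mainly from replicate 1, with values of 1.97, 0.25, 0.80 and 0.08. Complexes II and III had 12 of 12 genes above 0 and a median of 0.21. Sdha, the catalytic subunit of succinate dehydrogenase, gave 0.53, 1.02, 0.43 and 0.52, a mean of 0.63 ± 0.26 or 1.54-fold (unadjusted limma p = 0.00679), and was above 0 on 7 of 8 arrays. The complex III core genes were even over the replicates: Uqcrc2 gave 0.52, 0.52, 0.41 and 0.45, and Uqcrc1 gave 0.29, 0.29, 0.31 and 0.26. That evenness is a feature of the dye-balanced mean, since Uqcrc2 averaged 0.95 with sighted RNA in Cy3 and 0.00 in Cy5.

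Complex IV, cytochrome c oxidase, had 12 of 12 genes above 0 and a median of 0.29. Of the 12, 10 were above 0 in each replicate (12.9% of all genes with 4 replicates). Cox7b, a small structural subunit, gave 0.45, 0.46, 0.55 and 0.07 (mean 0.38 ± 0.21) and was above 0 on 8 of 8 arrays with similar means in Cy5, 0.43, and Cy3, 0.33. Cox6b1, Cox7c, Cox6a2 and the complex I gene Ndufb11 were also above 0 on every array. Cox6c averaged 0.39 ± 0.13, with 0.76 in Cy3 and 0.02 in Cy5. For ATP synthase and the mitochondrial carriers, 16 of 17 genes were above 0 and the median was 0.27. Atp5c1, the gamma subunit that turns inside the enzyme, gave 0.44, 0.50, 0.78 and 0.25 (mean 0.49 ± 0.22), with 0.42 in Cy5 and 0.57 in Cy3. Atp5pb, a stalk subunit, averaged 0.43 ± 0.16. Atp5b, the catalytic beta subunit, gave 0.40, 0.62, 0.30 and 0.31 (mean 0.41 ± 0.15) but differed by dye, at 0.92 in Cy3 and -0.10 in Cy5. The 2 oxidative phosphorylation genes with a mean below 0 were Ndufa5 at -0.07 and the ADP/ATP carrier Slc25a5 at -0.04, and both turned sign with 1 dye.

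**Figure D2:**
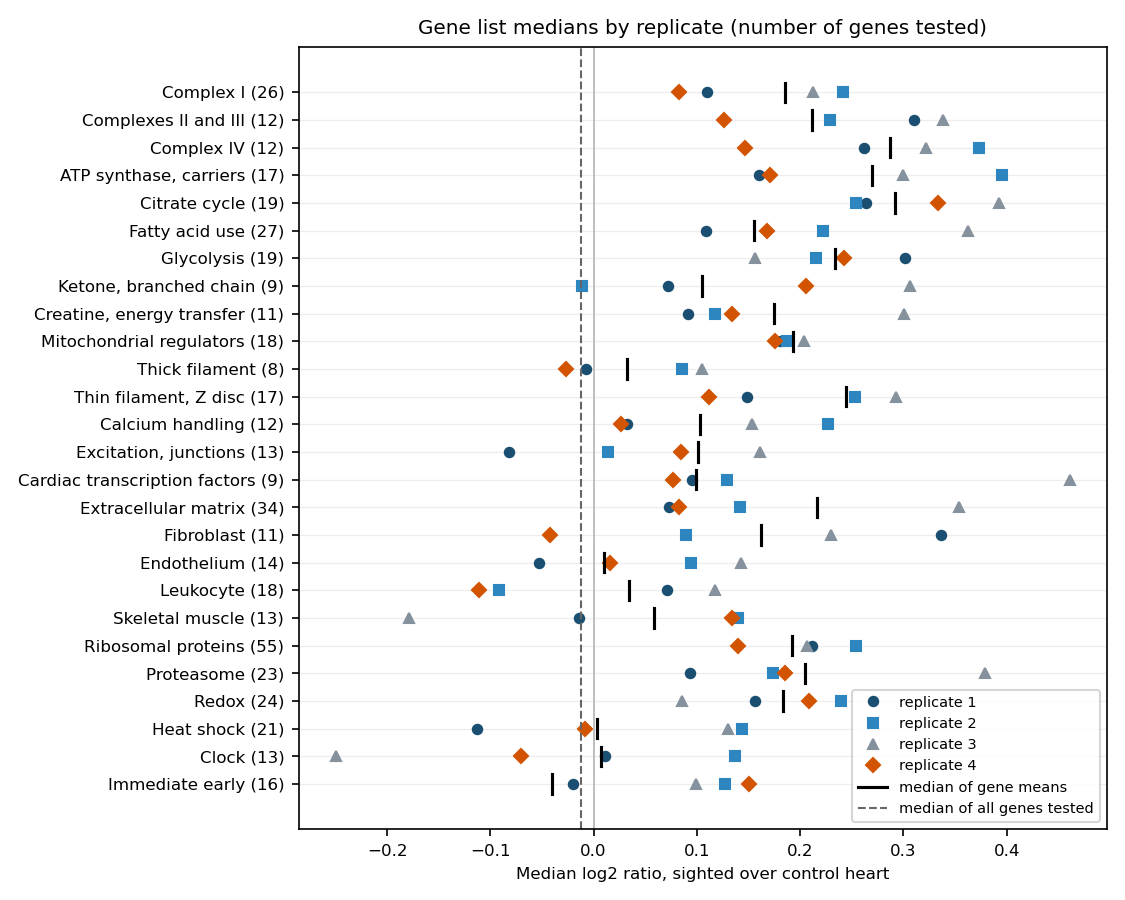
Median log2 ratio of sighted over control heart for 26 gene lists, with the number of genes tested in brackets. Symbols give the median in each of the 4 replicates, the black bar the median of the gene means, and the dashed line the median of all genes tested. Complexes I to IV, ATP synthase and the citrate cycle have all 4 replicate medians to the right of 0. Many other lists share this, among them fatty acid use, glycolysis, thin filament, matrix, ribosomal proteins, proteasome and redox. Clock, leukocyte and heat shock genes straddle 0. In replicate 4 the median of all genes tested is itself 0.11.

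The citrate cycle and its feeder enzymes had 17 of 19 genes above 0, a median of 0.29, and replicate medians of 0.26, 0.25, 0.39 and 0.33. Here 8 of 19 had an unadjusted p under 0.05 with sighted heart higher (3.63% of all genes) and 0 with it lower (4.54%). Of 18 with 4 replicates, 12 were above 0 in each (12.9% of all such genes). Fh1, fumarase, gave 0.47, 0.71, 0.35 and 0.46 (mean 0.50 ± 0.15, 1.41-fold) and like Cs was above 0 on 8 of 8 arrays. Got1, the aspartate aminotransferase of the malate-aspartate shuttle, gave a wider 0.48, 0.17, 1.00 and 0.66. For fatty acid uptake and oxidation, the main fuel route of adult heart, 24 of 27 genes were above 0 and the median was 0.16. Of these 27, 6 had an unadjusted p under 0.05, all higher (3.63% of all genes). Hadh, an enzyme of the beta-oxidation spiral, gave 0.53, 0.65, 0.23 and 0.55. Hadha, the alpha subunit of the trifunctional protein, gave 0.36, 0.41, 0.50 and 0.34, and Etfdh, which passes electrons from beta-oxidation to ubiquinone, gave 0.34, 0.36, 0.48 and 0.35. All 3 were above 0 in each replicate, with means of 0.49, 0.40 and 0.38. Their means were larger with sighted RNA in Cy3, 0.75, 0.70 and 0.68, than in Cy5, 0.23, 0.10 and 0.09. Among genes of fatty acid uptake and entry, Lpl, lipoprotein lipase, which heart muscle also makes, averaged 0.32 ± 0.12. Cpt1b, the muscle carnitine palmitoyltransferase, gave -0.06, -0.15, 0.41 and 0.42, and Fabp3, the heart fatty acid binding protein, gave 0.01, 0.39, 0.06 and -0.18.

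Glycolysis and glucose use showed the same side less evenly, with 13 of 19 genes above 0 and a median of 0.23. An unadjusted p under 0.05 was reached by 2 of the 19, both higher (3.63% of all genes). Aldoa, muscle aldolase, gave 0.86, 0.29, 0.63 and 0.53 (mean 0.58 ± 0.24) and Pygm, muscle glycogen phosphorylase, gave 0.35, 0.22, 0.39 and 0.38 (mean 0.34 ± 0.08), both above 0 on 8 of 8 arrays. Ketone body and branched-chain amino acid use had 7 of 9 genes above 0 and a median of 0.10, with Hibch, a valine breakdown enzyme, at 0.42 ± 0.16. Of the creatine and energy transfer genes, 10 of 11 were above 0 with a median of 0.17. Ckm, muscle creatine kinase, was small but even at 0.21, 0.21, 0.32 and 0.13, above 0 on 8 of 8 arrays and at 0.22 with either dye. Mb, myoglobin, gave 0.13, 0.16, 0.43 and -0.00. Prkab2, a regulatory subunit of the energy sensor AMPK, gave 0.26, 0.12, 0.52 and 1.15, with a mean of -0.52 when values above 15 were kept.

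Genes that control mitochondrial number and shape had 14 of 18 means above 0 and a median of 0.19, and their best-known members differed. Ppargc1a, the coactivator that drives mitochondrial genes in muscle, gave -0.09, 0.29, 0.10 and 0.42, a mean of 0.18 ± 0.23 that did not separate from 0 (unadjusted limma p = 0.266). Its relative Ppargc1b gave -0.96, -0.32, -1.07 and -0.35, a mean of -0.68 ± 0.39 (unadjusted limma p = 0.0111), with -0.87 in Cy5 and 0.12 in Cy3. One of its 3 probes, measured in a single replicate, was at -2.87, and the others averaged -0.39 and -0.49. Opa1, which fuses inner mitochondrial membranes, gave 0.96, 0.45, 0.58 and 0.17, with its 2 probes at 1.11 and 0.20. Over all probes with a value, arrays 7 and 8, which form replicate 4, were at -0.31 and -1.35.

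**Figure D3:**
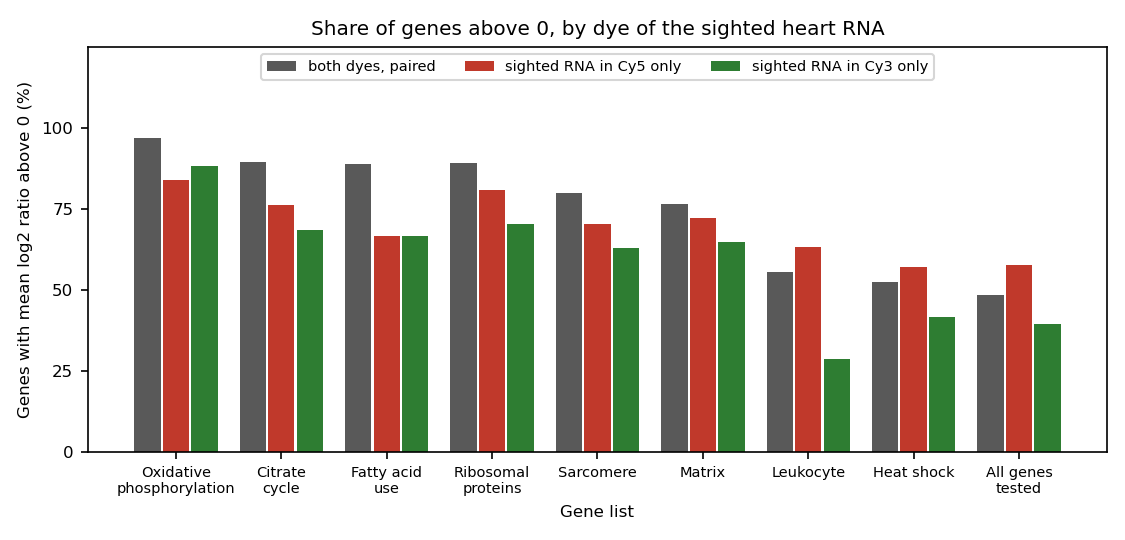
Share of genes with a mean log2 ratio above 0, in percent, for 8 gene lists and all genes tested. Grey bars use the dye-balanced replicates, red bars the arrays with sighted RNA in Cy5 and green bars those with it in Cy3. Oxidative phosphorylation genes are at 97.0%, 83.8% and 88.2%, and all genes at 48.3%, 57.8% and 39.3%.

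Of 25 contractile genes tested, 20 had a mean above 0 and the median was 0.16. Thick filament genes had 5 of 8 means above 0 and a median of 0.03, which was -0.05 with sighted RNA in Cy3 only. Myl2, the ventricular regulatory light chain, gave 0.24, 0.17, 0.12 and 0.14 (mean 0.17 ± 0.05), and Myl4, the atrial essential light chain, gave -0.23, -0.07, -0.11 and -0.03 (mean -0.11 ± 0.09), with neither separating from 0 in the test. Myh7, the slow myosin heavy chain of fetal and stressed mouse heart, averaged 0.11 ± 0.07, composed of 0.66 in Cy5 and -0.45 in Cy3. Thin filament and Z-disc genes had 15 of 17 means above 0 and a median of 0.24. Of 15 with 4 replicates, 10 were above 0 in each (12.9% of all such genes). With both dye orientations 8 of the 17 were above 0 (21.5% of all genes). With sighted RNA in Cy5 only, 66.7% of the list was above 0, against 57.8% of all genes. Tcap, which caps titin at the Z-disc, gave 0.38, 0.53, 0.23 and 0.39, and Tnnt2, cardiac troponin T, gave 0.26, 0.46, 0.52 and 0.12. With sighted RNA in Cy3 they averaged 0.71 and 0.56, and in Cy5 0.06 and 0.12. Actc1, cardiac actin, averaged 0.24 ± 0.21 and Tnni3, cardiac troponin I, 0.18 ± 0.09. Ankrd1, a titin-associated protein induced by stretch and listed here among both the Z-disc and the stress genes, gave 0.57, 0.25, 0.91 and 0.48 (mean 0.55 ± 0.27, 1.47-fold). A replicate uses only probes with a value on both of its arrays. Over all probes with a value, arrays 7 and 8, which form replicate 4, were at -0.12 and -0.17. By that measure Ankrd1 was above 0 on 5 of 8 arrays, with a mean of 0.58 in Cy5 and 0.22 in Cy3.

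Calcium handling genes had 8 of 12 means above 0 and a median of 0.10. Pln, phospholamban, the brake on the calcium pump of the sarcoplasmic reticulum, gave 0.62, 0.64, 0.45 and 0.39 (mean 0.53 ± 0.13, unadjusted limma p = 0.00729). Its replicates were even, but all of the difference came from the arrays with sighted RNA in Cy3, 1.12, and none from those in Cy5, -0.07. The pump itself, Atp2a2, gave -0.06, 0.23, 0.12 and 0.03, with its probes of opposite sign. Sri, sorcin, a calcium-binding regulator of the release channel, averaged 0.49 ± 0.37, and Slc8a1, the sodium-calcium exchanger, -0.23 ± 0.14 (0.08 with sighted RNA in Cy5 only). Excitation and junction genes had 8 of 13 means above 0 and a median of 0.10, which was -0.18 with sighted RNA in Cy3 only. Gja1, connexin 43, the main ventricular gap junction protein, gave 0.19, 0.42, 0.03 and 0.80, Atp1b1, a sodium pump subunit, averaged 0.30 ± 0.26 (-0.15 with sighted RNA in Cy3 only), and Vcl, vinculin, gave -0.45, -1.27 and -0.42 in the 3 replicates with a value. All 9 cardiac transcription factor genes tested had a mean above 0, but the median was 0.10, or -0.01 with sighted RNA in Cy3 only, and 0 reached an unadjusted p of 0.05. Srf averaged 0.29 ± 0.14 and Tbx5 0.26 ± 0.20, the latter at -0.04 with sighted RNA in Cy3 only. The stress list had 7 of 10 means above 0 and a median of 0.39, which was -0.16 with sighted RNA in Cy3 only. Timp1, an inhibitor of matrix proteases, gave 0.49, 0.30, 0.47 and 0.16 and was above 0 on 8 of 8 arrays, whereas Agt, angiotensinogen, ranged from 0.09 to 1.61 over 3 replicates and was at -0.14 with sighted RNA in Cy3 only. Myh6, Ryr2 and the natriuretic peptide genes Nppa and Nppb had no named probe.

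**Figure D4:**
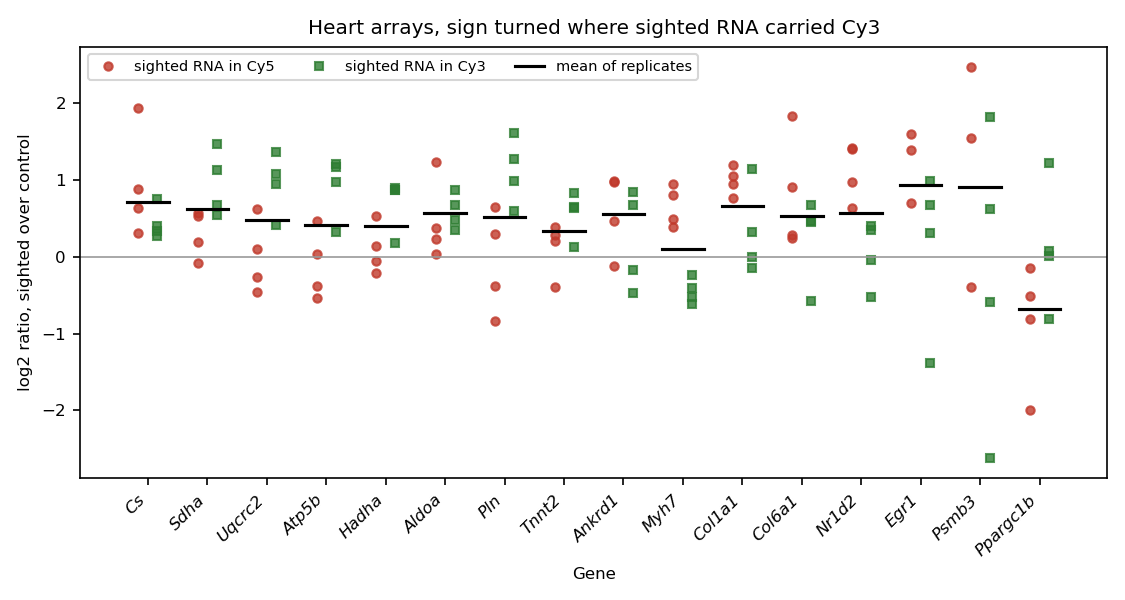
Log2 ratio of sighted over control for 16 genes on each heart array, with the sign turned where sighted RNA carried Cy3. Red circles and green squares are arrays with sighted RNA in Cy5 and Cy3, and the black bar is the mean of the replicates. Cs and Aldoa have all 8 arrays above 0, while Pln and Myh7 split by dye.

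Matrix genes lay to the sighted side as well. Of 34 extracellular matrix genes, 26 had a mean above 0 and the median was 0.22. An unadjusted p under 0.05 was reached by 6 with sighted heart higher (3.63% of all genes) and 0 with it lower (4.54%). Of 29 with 4 replicates, 7 were above 0 in each (12.9% of all such genes). Col1a1, a chain of the main fibrillar collagen, gave 0.64, 1.17, 0.38 and 0.45 (mean 0.66 ± 0.36, 1.58-fold). Col6a1, a chain of microfibrillar collagen, gave 0.69, 0.46, 0.37 and 0.63 (mean 0.54 ± 0.15). All replicates of both were above 0 and both means were higher with sighted RNA in Cy5, 0.99 and 0.82, than in Cy3, 0.33 and 0.25. Col5a2 averaged 0.80 over 3 replicates, but the probe measured in all 3 averaged 0.40, the other was measured in a single replicate at 2.47, and array 8, whose partner had no value, was at -1.20. Fibroblast markers had 7 of 11 means above 0 and a median of 0.16. Dcn, decorin, gave 0.49, 0.39, 0.34 and 0.15 and was above 0 on every array, and Dpep1, a peptidase, averaged -0.36 with 0.33 in Cy5 and -1.05 in Cy3. Adipocyte genes had 6 of 8 means above 0 and a median of 0.21, or -0.03 with sighted RNA in Cy3 only, with Lpl, given above, and Fabp4, which endothelium also expresses, at 0.39 ± 0.16 (-0.18 with sighted RNA in Cy5 and 0.95 in Cy3). Endothelial markers had 8 of 14 means above 0 and a median of 0.01, smooth muscle and pericyte markers 5 of 9 and 0.04, and leukocyte markers 10 of 18 and 0.03, and each of these medians was below 0 with sighted RNA in Cy3 only. Among these, Cdh5, VE-cadherin, averaged 0.26 ± 0.15, Myh11, smooth muscle myosin, 0.33 ± 0.30, and Cd163, a marker of resident macrophages, 0.29 ± 0.17. All 3 turned direction with 1 dye: Cdh5 was at -0.02 and Cd163 at -0.15 with sighted RNA in Cy5, and Myh11 at -0.08 with it in Cy3. Ece1, the endothelin converting enzyme, averaged -0.36 ± 0.28, with probes of opposite sign.

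Ribosomal protein genes, a set found in all cell types, lay about as far from 0 as the respiratory genes. Of 55 tested, 49 had a mean above 0. An unadjusted p under 0.05 was reached by 8 with sighted heart higher (3.63% of all genes) and 0 with it lower (4.54%). Of 49 with 4 replicates, 20 were above 0 in each (12.9% of all such genes). The list median was 0.19, with 0.21, 0.25, 0.21 and 0.14 in the replicates. Rplp2, a stalk protein of the large subunit, gave 0.37, 0.25, 0.65 and 0.53, and Rpl28 gave 0.42, 0.31, 0.41 and 1.01, both above 0 on 8 of 8 arrays. Rpl32 gave 0.41, 0.26, 0.39 and 1.06 but was above 0 on 4 of 8 arrays. Its mean was 1.05 with sighted RNA in Cy5 and -0.51 in Cy3. Many ribosomal protein genes have processed pseudogenes, and a cDNA probe can bind closely related transcripts. The proteasome, which degrades ubiquitinated proteins, had 18 of 23 subunit genes above 0 and a median of 0.20. Psmb7, a catalytic subunit, gave 0.37, 0.42, 0.91 and 0.93 (mean 0.66 ± 0.30) and Psmb1 gave 0.27, 0.64, 0.41 and 0.60 (mean 0.48 ± 0.17). Psmb3 had a mean of 0.91 over 3 replicates of 0.94, 0.71 and 1.08, but its single arrays ran from 2.48 to -0.59, and array 8, left out because array 7 had no value, was at -2.62. The antioxidant list had 17 of 24 means above 0 and a median of 0.18. In it 3 genes had an unadjusted p under 0.05, all higher (3.63% of all genes). Prdx1, a peroxidase, gave 0.32, 0.33, 1.11 and 0.68, and Hmox1, heme oxygenase, averaged 0.88 ± 0.43 over 3 replicates, with 1.75 in Cy5 and 0.19 in Cy3. Heat shock genes, by contrast, had 11 of 21 means above 0 and a median of 0.003, or -0.06 with sighted RNA in Cy3 only. Hspa5, the chaperone of the endoplasmic reticulum, ranged from -0.24 to 2.95. The MHC and interferon-response list had 12 of 17 means above 0 and a median of 0.12, with Ly6e, an interferon-induced surface protein, at 0.47 ± 0.19.

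Genes tied to light and time of day did not lie on 1 side of 0. Clock genes had 7 of 13 means above 0, a median of 0.01 (-0.04 with sighted RNA in Cy3 only) and 1 gene at an unadjusted p under 0.05, Nr1d2, given above. Per2, a core repressor of the clock, gave -0.55, -0.10, -0.46 and -0.28, a mean of -0.35 ± 0.20 that was below 0 on 8 of 8 arrays with both dyes alike, -0.43 and -0.26 (unadjusted limma p = 0.0519). Immediate early genes, which respond to stimuli within minutes, had 7 of 16 means above 0 and a median of -0.04, which was 0.13 with sighted RNA in Cy5 only, 0.05 without replicate 4 and 0.16 with replicates taken from any array with a value. Egr1 gave 0.68, 1.19 and 0.95 in 3 replicates, while array 8, the only array of replicate 4 with a value, was at -1.39. Nr4a2 gave -0.27, -0.52 and -0.94. The labels do not give the hour at which animals were killed. Of 8 rod photoreceptor genes with enough values in heart, 2 had a mean above 0, the median was -0.15 and 0 reached an unadjusted p of 0.05. Sag, rod arrestin, gave -0.06, -0.77 and -0.46. Because the 2 lines differ at Pde6b, the 25 genes on each side of it in the RefSeq gene order of mouse assembly GRCm38.p6 were examined as its chromosomal neighbours. Of these 15 could be tested, 8 had a mean above 0 and the median was 0.03, or -0.04 without replicate 4. Tgfbr3, a co-receptor of transforming growth factor beta, was higher on 8 of 8 arrays (mean 0.36 ± 0.20), and Glmn, glomulin, had a mean of -0.64 ± 0.58 with replicate 2 at 0.09.

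A dye effect was tested with the same 8 arrays to see how far Cy5 and Cy3 differed irrespective of genotype. Of 13358 genes, 0 passed at an adjusted limma p under 0.05 (0%), and the smallest adjusted p was 0.186. At an unadjusted p under 0.05 there were 2078 genes, 1698 brighter in Cy5 and 380 brighter in Cy3. Pairing opposite dyes removes a dye effect only as far as it is equal on both arrays of the pair.

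The brain arrays of the study, made with a control pool from the same 6 control mice, were set beside the heart arrays. The pools thus share animals, and the difference between organs was tested over the 4 heart and 6 brain replicates. Of 12688 genes, 0 passed at an adjusted p under 0.05 in this test (0%). An unadjusted p under 0.05 was reached by 1152, 498 with heart above brain (3.92%) and 654 with heart below brain (5.15%). Oxidative phosphorylation genes had a median of 0.23 in heart and -0.01 in brain, and of 66 genes 11 reached an unadjusted p under 0.05 for heart above brain and 0 for heart below. Citrate cycle genes had medians of 0.29 and -0.02, with 6 of 19 above and 0 below. Cs averaged 0.71 in heart and -0.17 in brain, a difference of 0.88 ± 0.18 (SE, unadjusted limma p = 0.0012), and Uqcrc2 averaged 0.48 and -0.05. Ribosomal protein genes had medians of 0.19 and 0.02, extracellular matrix genes 0.20 and -0.02, and clock genes 0.01 and -0.01. None of these differences was called for a single gene after adjustment, and the wider spread of the heart replicates, given above, enters each of them.

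The 5 genes with the smallest p for the difference between organs each had an adjusted p of 0.546. Higd1b, a pericyte-enriched gene, was at -1.84, -1.37 and -1.08 in heart, a mean of -1.43, and at 0.00 in brain. Its heart replicate 1 combined array 1 at -3.86 with array 2 at 0.18. Over the 6 heart arrays with a value, Higd1b averaged -2.06 with sighted RNA in Cy5 and -0.80 in Cy3. Egr1 averaged 0.94 in heart and -0.27 in brain, and Psmb3 had the values in heart given above. Fhl1, a LIM protein of striated muscle, gave 0.88, 0.98 and 0.90 in heart, but this evenness combined 2 probes, 1 measured in a single replicate at 2.81 and the other averaging 0.27, and array 8 was at -1.91. Gh, growth hormone, differed because of brain, where its mean was -1.67, whereas in heart it was 0.22 ± 0.67. Except for Gh, whose replicate 1 was the one missing, these genes lacked heart replicate 4.

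**Figure D5:**
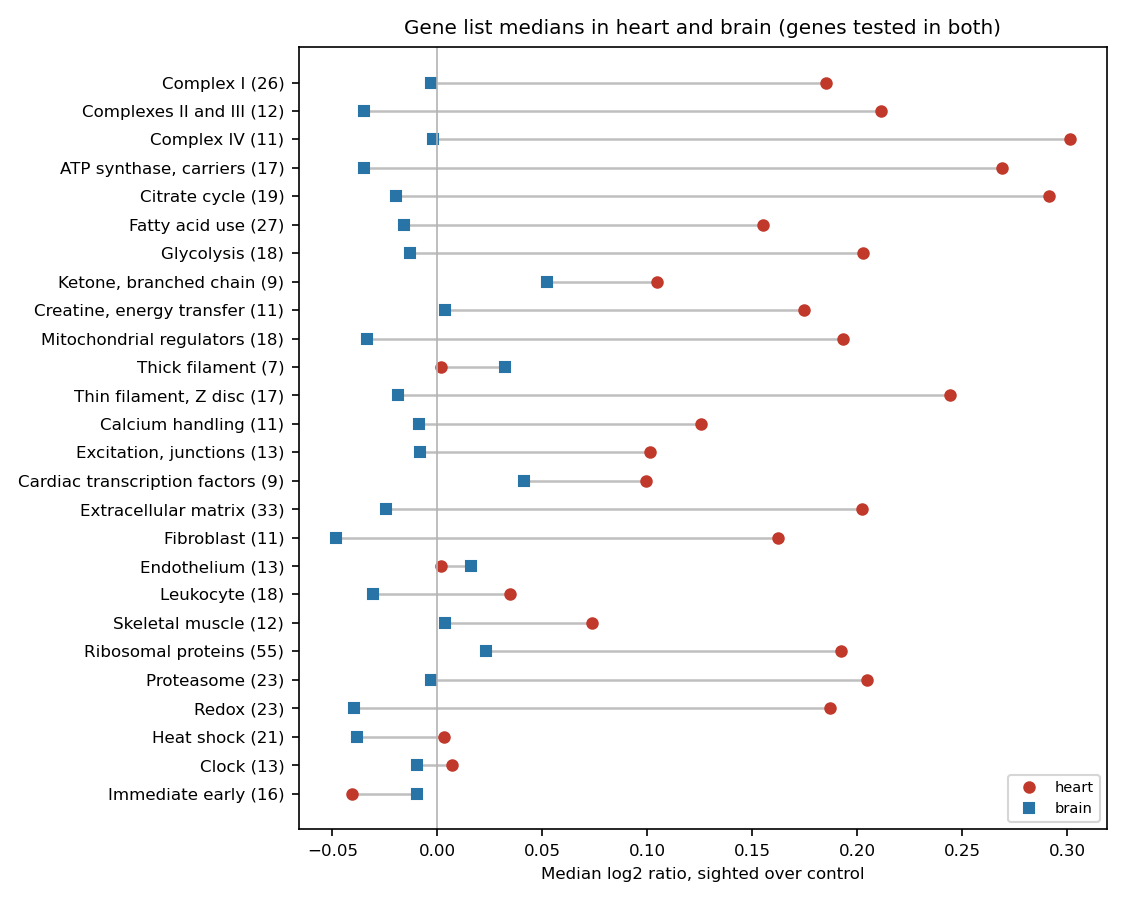
Median log2 ratio of sighted over control for each gene list in heart and in brain, over the genes tested in both, with their number in brackets. Brain medians stay near 0 for the metabolic lists while heart medians lie to the right, at 0.23 against -0.01 over all 66 oxidative phosphorylation genes.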

How the data were processed

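The authors hybridised 2-colour cDNA arrays, and the deposited values used here are log2 ratios of Cy5 over Cy3, 1 per probe and array, per the file headers and the labels. Of the scanner, any background correction and the normalization, the sources used here say nothing. Spot brightness was not used here, so signal over background is unknown, and precision is limited by the small number of arrays. Dyes were taken from the labels and the direction was inferred from rod genes in eye.

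Ratios were turned to sighted over control. Deposited values above 15, a repeated ceiling value, were set to missing. Opposite-dye arrays were averaged per probe into a replicate where both had a value, and probes of a gene were then averaged. Of the probes, 12771 have 1 gene symbol, 0 have several and 8023 have none, from the platform annotation, and the RefSeq table of GRCm38.p6 changed 0 symbols. Genes with at least 3 of 4 replicates were tested against 0 with limma 3.58.1 in R 4.3.3 (eBayes, Benjamini-Hochberg, threshold 0.05). Heart minus brain compared 4 with 6 replicates with unequal spreads per group, and required at least 5 brain replicates. The steps were tested on simulated data, where the heart-minus-brain test made more false calls among unchanged genes than its threshold allows. Its p-values may therefore be too small. The simulation took the observed SD of each gene as its true SD, so it cannot settle this for the real data.

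The members and all 37 gene lists were chosen with earlier results of these data known. Named are the 10 genes each way with 4 replicates of 1 sign and the smallest p, up to 3 per list by p, a fixed set of cardiac genes, and the 5 with the smallest heart-minus-brain p. Cox6b1, Cox7c, Cox6a2, Ndufb11, Ndufa5, Slc25a5 and Cd4 were named after their values were seen. With 4 replicates an exact two-sided sign-flip permutation test cannot go below p = 0.125, so none was run.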

Additional observations from a re-analysis of the deposited data

Results flagged for a closer look

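Among 94 named genes measured in 4 replicates and 36 lists, 5 genes and 2 list medians had 1 replicate far from the other three by Dixon's test. Chance alone flags about 1 in 20 such groups. The value standing apart was that of replicate 4, which holds array 7, for 4 of the genes. Cs, citrate synthase, was at 1.18 there against 0.49 to 0.60 in the others. Rpl28, a large-subunit ribosomal protein gene, was at 1.01 against 0.31 to 0.42. Ly6e, the interferon-induced surface protein gene, was at 0.75 against 0.35 to 0.41, so that for these 3 genes the other replicates were above 0 too. Slc4a1, the anion exchanger of red blood cells, was at 0.36 against -0.45 to -0.33, which turns its sign. S100b, a marker of Schwann cells and glia, stood apart in replicate 1, at 0.70 against -0.03 to 0.09, and so did the median of the neuron and Schwann cell list, at 0.29 (0.285) against 0.02 to 0.05. The median of the cardiac transcription factor list was 0.46 in replicate 3 and 0.08 to 0.13 in the others. Array 7 lacked 61.58% of its values, against 5.96% to 12.0% on the other 7 heart arrays.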

How the results depend on the processing

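No heart gene was called in any of 18 alternatives, with smallest adjusted limma p from 0.231 (every array a sample, pair as a random block) to 0.764 (without replicate 1) and 577 to 2454 genes at an unadjusted p under 0.05. Leaving out each replicate in turn gave 0 calls each time. The dye effect gave 0 calls in its 3 alternatives and heart minus brain 0 in its 7, with a smallest adjusted p of 0.0861 under a shared spread and 0.0954 without heart replicate 4. Deviations of same-numbered heart and brain replicates correlated at -0.0234 to -0.00628 across genes. Whether such replicates share animals is not labelled, and correlations between organs cannot decide it. With the replicate number as a block, heart minus brain gave 0 calls of 12590 genes (smallest adjusted p 0.659). The median of the oxidative phosphorylation list was 0.20 to 0.26 in 5 alternatives chosen after seeing the data (without replicate 4, arrays centred, either dye alone, replicates from any array with a value). Over these the median of all genes ran from -0.12 to 0.08. Where a list's median changed sign in them, a value that did so is given beside it, except for the thymus list, which held 1 gene.

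Rpl32 was not among the genes checked here or for an outlying replicate. Of 1857 values of 111 genes, 1819 kept their direction and 38, in 30 genes, turned it. With sighted RNA in Cy3 only these were Col5a2 -0.0264, Fabp3 -0.0404, Tbx5 -0.0434, Myh11 -0.0793, Agt -0.14, Atp1b1 -0.15, Psmb3 -0.19, Gh -0.26, S100b -0.32, Myh7 -0.45, Hba-a1 0.0598, Slc4a1 0.11, Vrk1 0.12, Ppargc1b 0.12 and Ndufa5 0.0506. In Cy5 only they were Cpt1b -0.021, Cdh5 -0.0213, Pln -0.0668, Atp5b -0.10, Cd163 -0.15, Fabp4 -0.18, Ndufv1 -0.20, Slc8a1 0.0838, Actn3 0.13, Dpep1 0.33 and Slc25a5 0.000333. With values above 15 kept they were Prkab2 -0.52, Fhl1 -0.55 and Mycbp2 0.0599. With replicates from any array with a value Gh was -0.10 and Slc25a5 0.00875, and with arrays centred and scaled Slc25a5 was 0.0714. Leaving out a replicate in turn, Fabp3 ran from -0.0369 (without replicate 2) to 0.153 (without replicate 4), Hba-a1 from -0.274 (without replicate 4) to 0.156 (without replicate 2), at 0.0313 without replicate 3, Gh from -0.0898 (without replicate 3) to 0.575 (without replicate 2), Slc25a5 from -0.184 (without replicate 1) to 0.0735 (without replicate 3), and Cd4 from -0.224 (without replicate 2) to 0.14 (without replicate 1). The cause was not tested.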

Other observations

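The lists given in this paragraph for tissues that lie beside or inside the heart had medians near or below 0. The adipocyte and fibroblast lists, given above, had medians of 0.21 and 0.16. Skeletal muscle genes had 7 of 13 means above 0 and a median of 0.06, or -0.06 without replicate 4. Their means ran from -0.47 to 0.33. Of 11 genes with 4 replicates 4 were above 0 in each (12.9% of all such genes) and 2 below (12.4%). Actn3, the fast-fibre alpha-actinin, averaged -0.35 ± 0.21 (n = 4), or 0.13 with sighted RNA in Cy5 only. The epicardium and mesothelium list had 2 of 6 means above 0 and a median of -0.20. In it Aldh1a1, a retinaldehyde dehydrogenase, gave -0.79, -0.03, -0.37 and -0.43, and Msln, mesothelin, gave -1.78, -0.49 and -0.29. Lung and airway genes had 1 of 4 means above 0, with the surfactant gene Sftpb at -0.93, -0.56 and -0.02. The 3 blood genes had 0 means above 0 and a median of -0.07, or 0.11 with sighted RNA in Cy3 only. Hba-a1, alpha globin, gave 0.05, -0.62, -0.25 and 0.66, with probes of both signs. The neuron and Schwann cell list had 2 of 5 means above 0 and a median of -0.04, or 0.12 with sighted RNA in Cy5 only. Of the thymus list 1 gene was tested, Cd4 at -0.09, or 0.14 without replicate 1. Among leukocyte genes Itgam, an integrin of myeloid cells, gave 1.02, 0.39 and 0.24. Among the rod genes the highest mean belonged to Gnb1, a G protein subunit present in many cells, at 0.26, 0.31 and 1.87, with probes of opposite sign. No gene here passed the adjusted limma test.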
